A study of Mus musculus with 4 samples.

Results

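The membrane skeleton exons described here belong to 10 genes, *Ank2*, *Ank3*, *Sptan1*, *Sptbn1*, *Epb41*, *Epb41l1*, *Epb41l2*, *Epb41l3*, *Add1* and *Dst*. They were taken from tables that list exon trios, each a middle exon with its neighbor on both sides, by matching the chromosome, the strand, the exon length and the length of each intron to GENCODE mouse transcripts. This gave 521 of 228333 trios, with 394 different middle exons of 180955, and 34 of the 394 are labelled as cassette exons in the database behind the tables. The tables give the percent spliced in (PSI), which is the portion of transcripts containing the middle exon, and the reads on the 3 junctions of each trio. An exon was compared when both libraries had at least 20 junction reads, which 389 of the 394 exons reached at E18 and 389 at P1.

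The study asked how splicing in the developing brain depends on the RNA-binding protein PTBP2, a repressor and activator of exons that is made as neurons leave the cell cycle. Whole brains at embryonic day 18 (E18) came from NesKO embryos, *Ptbp2* loxP/loxP with Nestin-Cre, which removes exon 4 of *Ptbp2* in all neural progenitors and their descendants, and from wild types. Cortex at postnatal day 1 (P1) came from EmxKO animals, *Ptbp2* loxP/loxP with Emx1-Cre, which acts in the lineage of the projection neurons of the dorsal forebrain and leaves other cortical cells unrecombined, and from wild types. All 4 groups have 1 library each and a background that the labels spell Mixed C56Bl/6:129S2. An E18 library pooled RNA of 2 brains and a P1 library held that of 1 animal, and the P1 libraries keep strand while the E18 libraries do not. No difference between genotypes therefore has a replicate check, every test below compares 2 libraries and not 2 genotypes, and stage, tissue, Cre line and protocol cannot be told apart.

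Beneath the plasma membrane of neurons, tetramers of alpha and beta spectrin cross-link actin into a lattice that lines the axon and anchors channels and adhesion molecules. Ankyrins tie spectrin to membrane proteins and organise the axon initial segment and the nodes of Ranvier. Proteins of the 4.1 family and adducin hold spectrin to short actin filaments, and the plakin dystonin links actin, microtubules and intermediate filaments. Most of these genes make several proteins by alternative splicing, and inclusion of alternative exons often differs between neurons and other cells.

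The sequences of the exons that the results turn on are shown with 12 bases of each neighboring exon. Capitals mark the alternative exon, and lower case marks the neighbors to which it is joined in the matched transcript of GENCODE release 21 (GRCm38), 5′ to 3′. Positions are those of the deposited tables on mm9.
Ank2 5′ exon of 99 nt (chr3:126715591-126715689, minus strand): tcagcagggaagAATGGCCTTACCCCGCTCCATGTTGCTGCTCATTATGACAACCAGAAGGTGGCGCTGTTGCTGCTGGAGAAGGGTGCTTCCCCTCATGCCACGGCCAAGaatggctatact
Ank2 3′ exon of 99 nt (chr3:126666301-126666399, minus strand): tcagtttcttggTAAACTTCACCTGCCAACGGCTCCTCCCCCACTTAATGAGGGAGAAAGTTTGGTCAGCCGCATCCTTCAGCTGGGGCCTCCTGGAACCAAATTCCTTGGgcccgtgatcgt
Ank2 exon of 183 nt (chr3:126631583-126631765, minus strand): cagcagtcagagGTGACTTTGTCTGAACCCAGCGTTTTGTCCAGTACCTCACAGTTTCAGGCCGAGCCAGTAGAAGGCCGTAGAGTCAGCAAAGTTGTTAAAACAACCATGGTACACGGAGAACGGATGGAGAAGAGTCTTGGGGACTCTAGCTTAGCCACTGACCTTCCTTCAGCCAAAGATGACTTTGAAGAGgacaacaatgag
Ank3 exon of 27 nt (chr10:69443572-69443598, plus strand): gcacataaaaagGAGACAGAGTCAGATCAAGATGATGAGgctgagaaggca
Epb41l3 exon of 123 nt (chr17:69633225-69633347, plus strand): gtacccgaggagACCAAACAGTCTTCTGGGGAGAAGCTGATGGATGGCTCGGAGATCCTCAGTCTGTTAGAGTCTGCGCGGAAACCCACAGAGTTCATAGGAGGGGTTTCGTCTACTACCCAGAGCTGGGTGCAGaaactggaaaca
Sptan1 exon of 63 nt (chr2:29884164-29884226, plus strand): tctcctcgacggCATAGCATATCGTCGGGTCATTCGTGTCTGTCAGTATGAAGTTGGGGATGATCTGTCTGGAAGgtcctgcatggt
Epb41 exon of 63 nt (chr4:131518839-131518901, minus strand): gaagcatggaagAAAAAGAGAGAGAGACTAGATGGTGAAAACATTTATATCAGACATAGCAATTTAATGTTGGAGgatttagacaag
Epb41l2 exon of 63 nt (chr10:25213373-25213435, plus strand): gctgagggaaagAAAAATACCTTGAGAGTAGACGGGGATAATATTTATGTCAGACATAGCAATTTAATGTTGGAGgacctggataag
The first 5 differed between the libraries of a stage beyond counting error, together with an *Epb41l3* exon of 528 nt, which is too long to print. The *Sptan1* exon is shown because its deposited value and its reads differ, and the last pair because the genes are paralogs whose 63-nt exons share 52 of 63 bases.

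Counted once per junction, the libraries hold from 48367448 to 83394001 junction reads. PSI of *Ptbp2* exon 4 was 0.1% in the NesKO against 99.9% in its wild type, and 15.9% in the EmxKO against 67.5% in the P1 wild type. Of its junction reads, 0.225% skipped the exon in the E18 wild type (1 read) and 31.55% in the P1 wild type (604 reads), where 82.6% did in the EmxKO. The P1 wild type thus goes against its label at the exon that Cre removes, and it is called the library labelled wild type from here on. Every P1 difference below is against that library, and why it skips the exon was not tested. Neuron markers (*Tubb3*, *Map2*, *Snap25*, *Stmn2*) summed to between 440 and 696 reads per junction, scaled to 1000000 junction reads, in the 4 libraries, most of it from *Tubb3* (322, 331, 509 and 404 in the order NesKO, E18 wild type, EmxKO, P1 library labelled wild type). *Snap25* (12.9, 27.5, 9.17 and 18.1) and *Map2* (11.3, 16.1, 15 and 26) were lower in each knockout, and *Stmn2* was at 93.8, 86.6, 163 and 189. The 4 astrocyte genes summed to 21, 25.5, 20.8 and 18.5 in the same order. Among them *Gfap* (7.32, 2.63, 3.19 and 1.36) was higher in each knockout, and *Aqp4* (0.49, 0.802, 0.0972 and 0.171) was lower in each. *Aldh1l1* (6.28, 7.81, 4.5 and 4.33) and *Slc1a3* (6.93, 14.3, 13 and 12.6) were lower in the NesKO and higher in the EmxKO. Markers of cortical projection neurons summed to 15.1 and 16.3 in the E18 brains against 51.2 and 59.1 in the P1 cortices. The 6 red blood cell genes summed to 705 in the NesKO, 541 in the E18 wild type, 77.7 in the EmxKO and 81.3 in the P1 library labelled wild type, and the 3 measured of 4 microglia genes to 8.65, 5.66, 4.05 and 2.49. Nearly all of the red blood cell sum came from *Hbb-bt*, at 703 in the NesKO. The 2 measured of 4 hindbrain genes summed to 1.35 and 2.0 in the E18 brains and to 0.00201 and 0 in the P1 cortices. The part of cell composition in the exon values below was not tested.

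Most membrane skeleton exons were included in nearly all transcripts, and a small set of alternative exons in the ankyrins and in *Epb41l3* differed between the knockout and the other library of a stage. Of the 394 exons, 320 had a PSI of at least 99% in all 4 libraries and 41 had a PSI between 5 and 95% in at least 1. At E18, 17 of 389 exons (4.37%) differed by 10 PSI points or more between the NesKO and the wild type, where 1.81% of all exons tested did. At P1, 5 of 389 (1.29%) differed between the EmxKO and the library labelled wild type, against 1.17% of all exons. Among cassette exons alone, 5 of 34 passed this cutoff at E18 and 3 of 34 at P1, where the shares of all cassette exons were 11.0% and 9.39%.

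The cutoff was then joined with Fisher's exact test (two-sided) of junction reads between the 2 libraries, adjusted by Benjamini-Hochberg over all exons tested. Both criteria were met by 3 exons at E18, all in *Ank2*, with 1 higher and 2 lower in the NesKO. They were met by 3 exons at P1, in *Ank3* and *Epb41l3*, all higher in the EmxKO. These are 0.771% of the exons at each stage, against 0.131% of all exons at E18 and 0.178% at P1. The membrane skeleton exons had more reads than most, with medians of 869 reads in the NesKO and 1130 in the E18 wild type against 235 and 262 over all exons tested, so that the test could see smaller differences in them. The next exon below the cutoff of 10 points, in *Epb41l3*, had a largest difference of 8.6 points, and the last exon above it, in *Ank3*, had 10.6.

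Reads given for an exon are those of the trio used, unless the highest listing is named. The deposited PSI also uses the read coverage of the exons, and at E18 it moved where the junction reads did not. Of the 14 exons that passed 10 points at E18 without an adjusted p below 0.05, 9 differed by less than 10 points in PSI computed from junction reads, that is, mean inclusion reads divided by mean inclusion plus skipping reads. No read skipped the exon in any library for 5 of them, in *Sptbn1* (174 and 245 nt), *Epb41l2* (54 and 143 nt) and *Dst* (1472 nt). Such calls made up 5 of 187 exons without a skipping read at E18, against 0.645% over all genes, and 0 of 188 at P1, against 0.187%. The plot of deposited against junction-read differences shows these exons in a vertical line at a junction difference of 0. Among all 14, the adjusted p by Fisher's exact test was 0.0851 for the *Ank3* exon of 27 nt and higher for the others, and the differences ranged from 10.6 to 40.4 points. Beside the exons of *Sptbn1* and *Epb41l2* just named, the 14 are exons of *Sptan1* (149 nt), *Epb41* (57 nt), *Epb41l2* (63 nt), *Epb41l3* (528 nt), *Ank3* (27, 218 and 225 nt) and *Dst* (234, 1472 and 5292 nt).

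**Figure D1:**
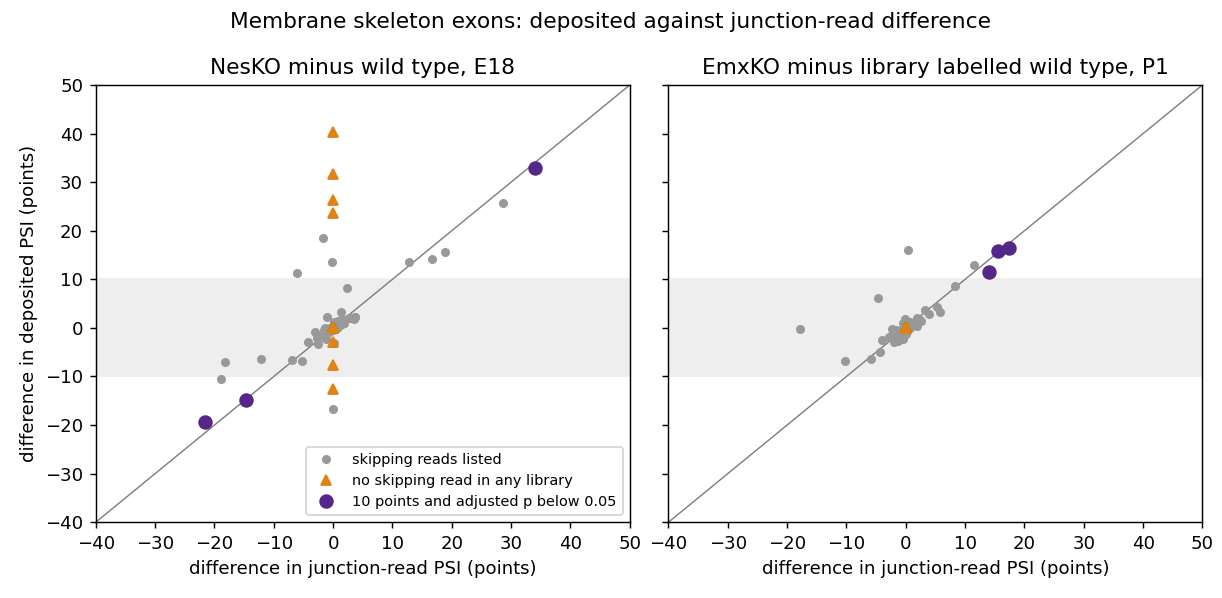
Difference in deposited PSI (vertical axis, points) against the difference in PSI from junction reads (horizontal axis, points) for the membrane skeleton exons, with NesKO minus wild type at E18 on the left and EmxKO minus the library labelled wild type at P1 on the right. The grey band holds differences under 10 points, purple points passed 10 points with an adjusted p below 0.05, and orange triangles, exons with no skipping read in any library, reach 40.4 points at E18 at a junction difference of 0.

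*Ank2* encodes ankyrin-B, which is found along axons and in the heart, and 3 of its 48 exons differed between NesKO and wild type. The 5′ exon of 99 nt is exon 17 of 46 in the matched transcript and has the length of the coding sequence of an ankyrin repeat, the unit of the part of ankyrin that binds membrane proteins. Its PSI was 92.2% in the NesKO, 59.3% in the E18 wild type, 60.5% in the EmxKO and 56.3% in the P1 library labelled wild type. The NesKO stood apart from the other libraries, which lay close together. From junction reads, PSI was 92.3% in the NesKO (95% Wilson interval, 89.9 to 94.2%) against 58.2% in its wild type (54.9 to 61.5%), and the adjusted p of Fisher's exact test was 2.1e-48. At P1 the EmxKO differed by 4.2 points, with an adjusted p of 1. The change at E18 differed from that at P1 by the Wald chi-square test of the log odds ratios, with an adjusted p of 3e-16, where 0.0559% of all exons tested at both stages passed 0.05.

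The junctions of this exon did not move together in the NesKO. Taking each junction's highest listing over all trios, reads that joined the exon to its 3′ neighbor numbered 1043 in the NesKO, 728 in the E18 wild type, 540 in the EmxKO and 408 in the P1 library labelled wild type. Reads that joined it to its 5′ neighbor numbered 102, 418, 378 and 280 in the same order, and skipping reads 93, 497, 387 and 344. In the NesKO the 3′ junction was thus higher than in the wild type, while both junctions that start at the 5′ neighbor were lower.

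The 5′ neighbor itself was joined to its own 5′ side by 662 reads in the NesKO, 765 in the E18 wild type, 630 in the EmxKO and 469 in the P1 library labelled wild type. The reads leaving it toward the exon or past it were 29.5% of that number in the NesKO and between 119.6 and 133% in the other libraries. Among reads leaving the 5′ neighbor alone, the share that entered the exon was 52.3% in the NesKO (45.3 to 59.2%) against 45.7% (42.5 to 48.9%) in the E18 wild type, a difference of 6.62 points with an adjusted p of 1. In the highest listing, the higher PSI in the NesKO thus rests on the 3′ junction against the skipping junction. Reads from the 5′ neighbor alone did not pass the test there, and this listing was chosen after its values were seen. In the trio used, reads from the 5′ neighbor alone did pass, at 22.1 points with an adjusted p of 0.001 by Fisher's exact test. Inclusion and skipping reads were 102 and 47 in the NesKO against 313 and 362 in the E18 wild type.

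**Figure D2:**
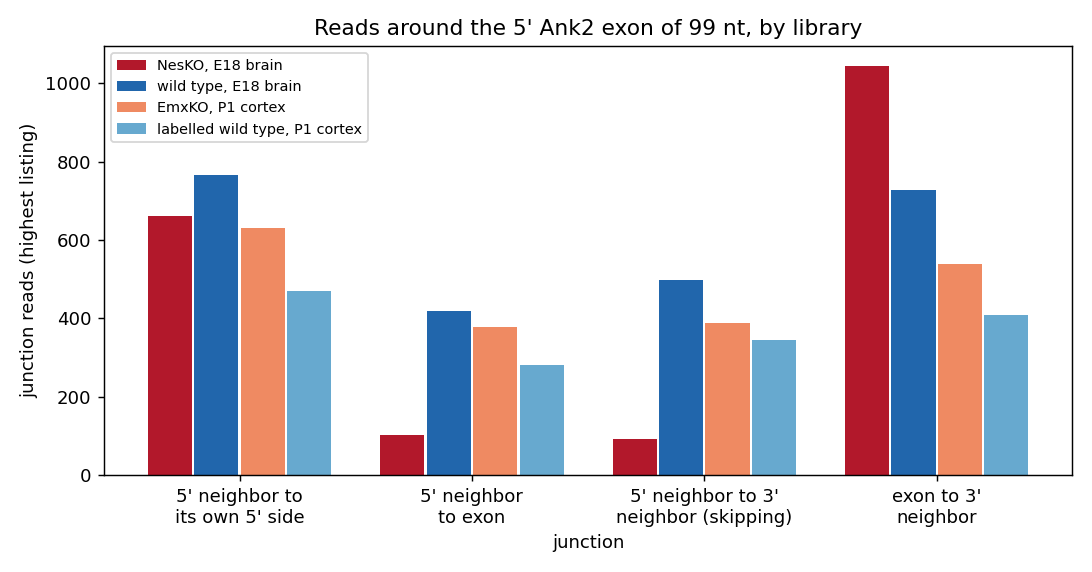
Reads on the junctions around the 5′ Ank2 exon of 99 nt (vertical axis, reads, highest listing over trios) for 4 junctions and 4 libraries, not scaled for depth. The NesKO bars are the lowest on both junctions that leave the 5′ neighbor, at 102 and 93 reads, and the highest on the junction from the exon to its 3′ neighbor, at 1043 reads.

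The 3′ exon of 99 nt, exon 28 of 46, was included less in the NesKO. Its PSI was 39.8% in the NesKO, 59.1% in the E18 wild type, 42.1% in the EmxKO and 44.0% in the P1 library labelled wild type. The E18 wild type was the high library here, and the other libraries lay close together. By junction reads, PSI was 37.7% in the NesKO (34.1 to 41.5%) against 59.4% in its wild type (55.7 to 62.9%), with an adjusted p of 2.6e-12. Both inclusion junctions were lower, at 231 and 267 reads against 290 and 557, and skipping reads were higher, at 411 against 290. At P1 the difference was -1.9 points with an adjusted p of 1, and the change differed between the stages with an adjusted p of 0.0043 by the Wald test.

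The exon of 183 nt is exon 45 of 46. Its PSI was 14.9% in the NesKO, 29.8% in the E18 wild type, 12.9% in the EmxKO and 14.2% in the P1 library labelled wild type. As for the 3′ exon of 99 nt, the E18 wild type stood above the other libraries. Junction reads gave 14.9% in the NesKO (13.5 to 16.5%) against 29.5% in its wild type (27.8 to 31.2%), with an adjusted p of 3.7e-31, while skipping reads were nearly level at 1885 and 1927. The difference at P1 was -1.3 points, with an adjusted p of 1 by Fisher's exact test. It differed from that at E18 with an adjusted p of 7.5e-05 by the Wald test.

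Other alternative exons of *Ank2* did not pass both criteria between the libraries of a stage. The exon of 12 nt had a PSI of 67.7% in the NesKO, 59.4% in the E18 wild type, 50.6% in the EmxKO and 37.7% in the P1 library labelled wild type, and its adjusted p was 1 at both stages. The exon of 24 nt had 97.4, 95.1, 99.7 and 98.2% in the same order. A further exon of 99 nt, exon 3 of 16 in a shorter transcript, had 23.2, 29.9, 47.9 and 46.8%, with both P1 libraries above both E18 libraries. In the trio used, 1 of its inclusion junctions had 0 reads in all 4 libraries, while other trios listed that junction with 31, 62, 77 and 56 reads.

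*Ank3* encodes ankyrin-G, the organiser of the axon initial segment. The exon of 27 nt was included more in the EmxKO than in the P1 library labelled wild type. Its PSI was 86.7% in the NesKO, 71.1% in the E18 wild type, 72.3% in the EmxKO and 55.8% in the P1 library labelled wild type. Each knockout lay above the other library of its stage, and the EmxKO lay close to the wild type of E18. From junction reads, PSI was 61.4% in the EmxKO (56.9 to 65.8%) against 44.1% in the P1 library labelled wild type (39.0 to 49.3%), with an adjusted p of 0.00048 by Fisher's exact test. The EmxKO had 432 reads on the upstream and 135 on the downstream junction against 234 and 77, with 178 and 197 skipping reads. At E18 the difference was of similar size, 15.6 points, on fewer reads (29 and 71 skipping reads), with an adjusted p of 0.085. The Wald test of the difference between the stages gave an adjusted p of 1.

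A neighboring exon of *Ank3*, of 82 nt and not a multiple of 3, had a PSI of 96.4% in the NesKO, 97.2% in the E18 wild type, 93.0% in the EmxKO and 99.9% in the P1 library labelled wild type. Its skipping reads were 1, 2, 15 and 1, and the difference of -6.9 points at P1 had an adjusted p of 0.041 without reaching the cutoff. The exon of 225 nt passed 10 points at both stages in opposite directions, -16.6 points at E18 and 16 at P1, with 0, 0, 0 and 1 skipping reads and an adjusted p of 1 at both by Fisher's exact test. The exon of 218 nt differed by -10.6 points at E18, with an adjusted p of 0.163. Of the 47 *Ank3* exons, 39 had a PSI of at least 99% in all libraries.

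**Figure D3:**
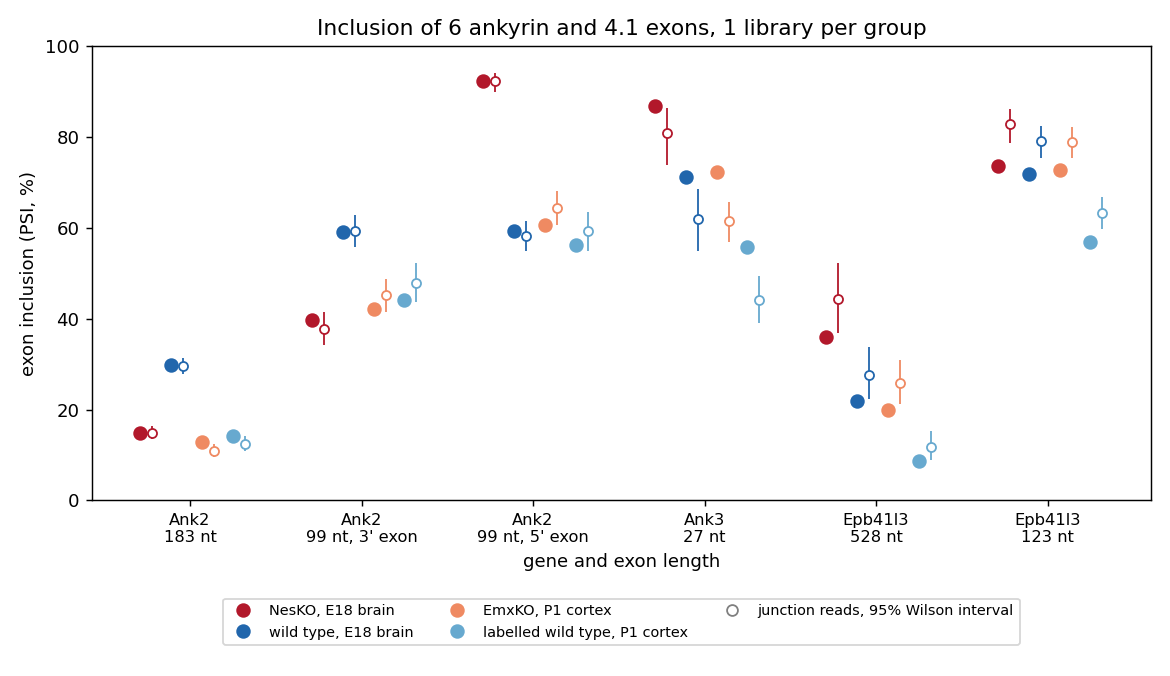
PSI (vertical axis, percent) of the 6 exons that passed both criteria at E18 or P1, in 4 libraries. Filled points are the deposited PSI, and open points are PSI from junction reads with 95% Wilson intervals, which cover counting error only. The E18 wild type is the highest library for the Ank2 exon of 183 nt and the 3′ Ank2 exon of 99 nt, the NesKO for the 5′ Ank2 exon of 99 nt, and the P1 library labelled wild type is the lowest for the Ank3 and Epb41l3 exons.

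*Sptan1* and *Sptbn1* encode alpha-II and beta-II spectrin, the spectrins of the axonal lattice, and no exon of either passed both criteria. In *Sptan1* the exon of 60 nt is exon 22 of 57. Its PSI was 43.8% in the NesKO, 46.7% in the E18 wild type, 33.8% in the EmxKO and 36.8% in the P1 library labelled wild type. The knockouts lay 2.9 and 3.0 points below the other library of their stage, with adjusted p of 0.756 and 1 by Fisher's exact test. The exon of 15 nt stayed between 97.6 and 98.4% in deposited PSI in all libraries. With the highest listing of each junction it was 93.4% in the NesKO and 92.95% in the E18 wild type. The EmxKO then had 90.03% and the P1 library labelled wild type 90.2%.

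The *Sptan1* exon of 63 nt, exon 51 of 57, was listed at a PSI of 0% in all 4 libraries although reads entered it. In its own trio the inclusion junctions held 82 and 71 reads in the NesKO, 17 and 11 in the E18 wild type, 329 and 166 in the EmxKO and 60 and 29 in the P1 library labelled wild type, with 0 skipping reads. Its neighbors in the trio are 18 and 55 nt long, so that the skipped form is 73 nt, shorter than a read of 100 nt. Across the whole table, 0 of 3254 trios whose neighbors together are shorter than a read had a skipping read, including 173 cassette trios, while 72.9% of cassette trios with neighbors of 100 to 119 nt had at least 1.

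Trios centered on the next exon, of 55 nt, list the reads that enter it from the 63-nt exon and those that enter it from the 18-nt exon before. In the NesKO, 526 reads came from the 63-nt exon and 331 from the 18-nt exon, and the E18 wild type had 124 and 375. In the EmxKO they were 1440 and 2017, and in the P1 library labelled wild type 524 and 1657. The share from the 63-nt exon was thus 61.4% in the NesKO (58.1 to 64.6%) against 24.8% (21.3 to 28.8%) in the E18 wild type. It was 41.7% in the EmxKO (40.0 to 43.3%) against 24.0% (22.3 to 25.9%) in the P1 library labelled wild type. Both libraries labelled wild type lay together and both knockouts above them, and at each stage the 2 intervals did not overlap. The P1 pair compares the EmxKO with a library that itself skipped *Ptbp2* exon 4 in 31.55% of reads. Reads leaving the 55-nt exon on its other side numbered 1720 in the NesKO and 1301 in the E18 wild type, more than the listed entries together. Entries from the 18-nt exon, the shorter one, may be undercounted, so the share compares libraries and is no inclusion level. This measure was chosen after its values were seen, so it carries no test, and the intervals cover counting error between 2 libraries only.

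**Figure D4:**
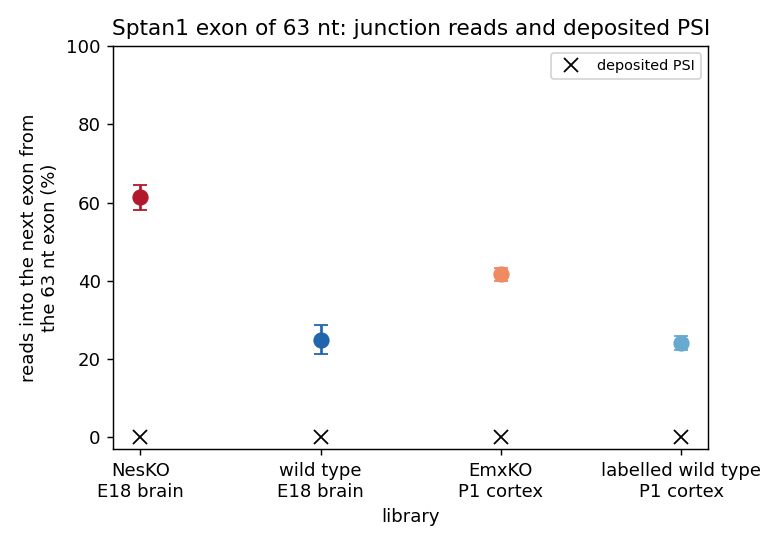
Share of the reads into the 55-nt Sptan1 exon that came from the 63-nt exon (vertical axis, percent) in 4 libraries, with 95% Wilson intervals, and the deposited PSI of the 63-nt exon as crosses. The shares are 61.4, 24.8, 41.7 and 24.0% from left to right, while the deposited PSI is 0 in every library. The shares compare libraries and are no inclusion level.

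Other spectrin exons with large deposited differences had almost no skipping reads. The *Sptan1* exon of 149 nt had a PSI of 75.5% in the NesKO, 61.9% in the E18 wild type and 99.7% in both P1 libraries. Its skipping reads were 5, 2, 18 and 14, and junction-read PSI was 99.7% or more everywhere. In *Sptbn1* the exons of 174 and 245 nt were listed at 68.3 and 76.2% in the E18 wild type and at 99.9% in the other libraries, with 0 skipping reads in all 4. For both *Sptbn1* exons the E18 wild type alone was low, and 31 of the 33 *Sptbn1* exons were at 99% or more in every library.

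*Epb41l3* encodes 4.1B, an adapter of the membrane next to nodes of Ranvier, and 2 of its 22 exons were included more in the EmxKO than in the P1 library labelled wild type. The exon of 123 nt, exon 16 of 22, had a PSI of 73.6% in the NesKO, 71.8% in the E18 wild type, 72.6% in the EmxKO and 56.8% in the P1 library labelled wild type. The P1 library labelled wild type was the low library and the others lay within 1.8 points. From junction reads, PSI was 78.9% in the EmxKO (75.3 to 82.1%) against 63.3% in the P1 library labelled wild type (59.6 to 66.8%), with 115 and 253 skipping reads and an adjusted p of 1.9e-06. At E18 the difference was 1.8 points with an adjusted p of 1.

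The *Epb41l3* exon of 528 nt (chr17:69615245-69615772) had a PSI of 36.0% in the NesKO, 21.9% in the E18 wild type, 20% in the EmxKO and 8.6% in the P1 library labelled wild type. Each knockout lay above the other library of its stage. Its junction-read PSI was 25.8% in the EmxKO (21.3 to 30.8%) against 11.7% (8.8 to 15.3%) in the P1 library labelled wild type, with an adjusted p of 0.00092. At E18 the difference of 14.1 points had an adjusted p of 0.342 with the trio used, and 0.026 when each junction's highest listing was taken. With reads leaving the 5′ neighbor alone in the highest listing, the difference at P1 was 8.74 points, under the cutoff, with an adjusted p of 0.0056. With the 5′ junction alone in the trio used it was 16.4 points, with an adjusted p of 4e-05 by Fisher's exact test. The exon of 117 nt, partly coding in the matched transcript, had 77.4, 75.2, 58.9 and 50.3%, with adjusted p of 1 at E18 and 0.916 at P1. For these 3 exons the change was not shown to differ between the stages, with adjusted p of 1 by the Wald test.

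*Epb41* encodes 4.1R, the 4.1 protein of the red cell, and *Epb41l2* encodes 4.1G. The 63-nt exon of *Epb41* belongs to the spectrin-actin binding domain and is known for its inclusion as red cells mature. PSI of the *Epb41* exon was 16.8% in the NesKO, 23.6% in the E18 wild type, 11.4% in the EmxKO and 10.2% in the P1 library labelled wild type. It was higher in the E18 libraries, and the libraries of each stage had adjusted p of 1 by Fisher's exact test. The red blood cell list, of which *Epb41* is no part, summed to 705 and 541 at E18 against 77.7 and 81.3 at P1, and its part in the stage difference was not tested. The *Epb41l2* exon of 63 nt had 96.9, 83.3, 30 and 26.3% on few reads, with 1, 8, 0 and 2 skipping reads. From junction reads its PSI was 95.4, 82.6, 100 and 76.5%, so the low deposited values at P1 are not seen in its reads. Only its E18 pair had enough reads to be compared, with an adjusted p of 1 by Fisher's exact test.

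In *Epb41* the exon of 57 nt was listed at 87.2, 68.7, 40.2 and 34.1%, and its skipping reads were 1, 0, 6 and 0. In *Epb41l2* the exon of 315 nt had a PSI of 92.4% in the NesKO, 99.4% in the E18 wild type, 86.0% in the EmxKO and 88.5% in the P1 library labelled wild type. Skipping reads of that exon were 22, 3, 19 and 19, and the difference of -7.0 points at E18 had an adjusted p of 0.0064. With the highest listing of each junction, skipping reads were 26, 18, 32 and 38, and PSI from them was 76.4% in the NesKO, 86.6% in the E18 wild type, 66.7% in the EmxKO and 69.6% in the P1 library labelled wild type. The *Epb41l2* exon of 54 nt was listed at 59.5% in the E18 wild type and 99.9% in the other libraries with 0 skipping reads in all 4.

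*Epb41l1* encodes 4.1N, the 4.1 protein of most neurons, and none of its 22 exons reached 10 points at either stage. The exon of 49 nt, not coding in the matched transcript, had 90.5, 91.7, 87.6 and 88.2%. The exon of 87 nt, exon 19 of 23, had a PSI of 99.9% in the NesKO, 97.9% in the E18 wild type, 99.8% in the EmxKO and 98.0% in the P1 library labelled wild type. Skipping reads were 1, 17, 4 and 28, so the exon was skipped less in each knockout than in the other library of its stage. The differences of 2.0 and 1.8 points had adjusted p of 0.026 and 0.00042 by Fisher's exact test. This was the 1 membrane skeleton exon with an adjusted p below 0.05 at both stages, and it was named after its values were seen.

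*Add1* encodes alpha-adducin, which caps actin filaments and recruits spectrin to them, and none of its 17 exons passed 10 points. The exon of 37 nt, whose length is no multiple of 3, had a PSI of 89.3% in the NesKO, 87.3% in the E18 wild type, 94.4% in the EmxKO and 91.2% in the P1 library labelled wild type. Its difference of 3.2 points at P1 had an adjusted p of 2.3e-06 on 211 and 281 skipping reads. The exon of 87 nt had 6.9, 5.1, 11.2 and 9.1%, and the exon of 279 nt, which is not coding in the matched transcript, had 5.5, 4.4, 19.9 and 24.8%. Their adjusted p values by Fisher's exact test ranged from 0.326 to 1 between the libraries of a stage, and both had higher values at P1 than at E18.

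*Dst*, the dystonin gene, gave 102 of the 394 exons, and none passed both criteria. A cassette exon in the middle of the gene (chr1:34306649-34306975) had a PSI of 19.0% in the NesKO, 16.7% in the E18 wild type, 8.7% in the EmxKO and 8.9% in the P1 library labelled wild type. Its adjusted p was 1 at both stages, and both E18 libraries lay above both P1 libraries. The exons of 18, 72 and 111 nt near the 3′ end had 12.9 to 18.8% in the NesKO beside 15.2 to 17.8% in the E18 wild type, against 6.4 to 12.9% in the EmxKO and 7.8 to 11.1% in the P1 library labelled wild type. The exon of 5292 nt had the largest listed difference within a stage in *Dst*, 57.5% in the NesKO against 31.7% in the wild type. It had 10, 10 and 0 reads over its 3 junctions in the NesKO and 3, 17 and 4 in the wild type. Its adjusted p was 1 by Fisher's exact test.

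Between the libraries labelled wild type, 21 of 388 exons (5.41%) differed by 10 points or more between E18 brain and P1 cortex, against 3.18% of all exons, and 11 of 34 cassette exons, against 20.9%. With the test added, the count was 11 (2.84%, against 0.664% of all exons), of which 2 were higher and 9 lower at P1. No skipping read was present for 7 of the 21, out of 188 such exons tested, where the share over all genes was 0.994%. In order of size the 10 largest were the *Dst* exon of 177 nt, the *Epb41l2* exon of 54 nt, the *Sptan1* exon of 149 nt, the *Epb41* exon of 57 nt, the *Sptbn1* exon of 174 nt, the *Epb41l2* exon of 143 nt, the *Epb41l3* exon of 117 nt, the *Sptbn1* exon of 245 nt, the *Sptan1* exon of 55 nt and the *Ank2* exon of 12 nt. Of these, the *Epb41l3* exon (75.2 to 50.3%) and the *Ank2* exon (59.4 to 37.7%) passed both criteria, with adjusted p of 3.55e-05 and 0.0071 by Fisher's exact test. The 2 that were higher at P1 were the *Add1* exon of 279 nt and the third *Ank2* exon of 99 nt.

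Of the 6 exons that passed both criteria within a stage, 5 also differed between the libraries labelled wild type. They were lower at P1 by 13.3 to 15.6 points, and the 5′ *Ank2* exon of 99 nt was the exception. This comparison shares its libraries with the other comparisons, so the values stand side by side and not as separate evidence. The NesKO values of the *Ank2* exons of 183 nt (14.9%) and of the 3′ 99 nt (39.8%) stood beside 14.2 and 44.0% in the P1 library labelled wild type. The EmxKO values of the *Ank3* exon of 27 nt (72.3%) and of the *Epb41l3* exons of 123 and 528 nt (72.6 and 20%) stood beside 71.1, 71.8 and 21.9% in the E18 wild type.

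All 6 exons lie within coding sequence and have lengths that are multiples of 3, and none has a stop codon in the reading frame of its matched transcript. Of the membrane skeleton exons whose trio used is a cassette trio, 30 of 32 (93.8%) have such lengths. Over all 394 exons, 232 (58.9%) do, and among the 9319 cassette exons of all genes the share is 49.6%. The 6 range from 27 to 528 nt. Over all genes, exons of 1 to 27 nt had a median of 12.3% of their inclusion reads on the genome-right junction, against 50% for exons of 100 to 149 nt. The mean of both junctions, and with it the PSI from junction reads, is therefore low for an exon as short as the *Ank3* exon of 27 nt.

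Transcript levels of the 10 genes differed less than 1.5-fold between the libraries of a stage. As mean reads per junction, scaled to 1000000 junction reads, levels ran from 2.23 for *Epb41l2* to 43.0 for *Sptan1* in the NesKO and from 2.99 to 43.9 in the E18 wild type. In the EmxKO they ran from 1.12 to 68.4 and in the P1 library labelled wild type from 1.37 to 51.7. The NesKO level was the lower of the pair for all 10 genes, from 0.675 of the wild type level for *Dst* (3.82 and 5.66) to 0.981 for *Sptan1*. With the median over junctions in place of the mean, *Ank3* and *Epb41l1* were at 1.05 and 1.01. The EmxKO level was between 0.816 of the level in the library labelled wild type for *Epb41l2* and 1.33-fold for *Ank2* (7.95 and 5.96). A fold above 1 fell on 7 genes at P1 and a fold below 1 on *Epb41*, *Epb41l2* and *Epb41l3*. These directions and folds were not counted over all genes, so they cannot be read as particular to the membrane skeleton.

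Between the libraries labelled wild type, 4 genes passed 1.5-fold, and 3 with the median over junctions, where *Ank3* was at 0.81. The share of all genes past 1.5-fold was not computed, so the count cannot be read as a trait of these genes. *Epb41* was 2.06-fold higher at P1 (9.48 against 4.61), and 3.22-fold with the median (8.06 against 2.5), while *Ank2* (5.96 against 14.9), *Ank3* (5.35 against 8.99) and *Epb41l2* (1.37 against 2.99) were at 0.401, 0.596 and 0.458 of the E18 level. The higher *Epb41* level at P1 came with a lower sum of the red blood cell list. In these bulk samples fewer cells of a type and less RNA per cell cannot be told apart, and 1 library per group gives no spread.

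**Figure D5:**
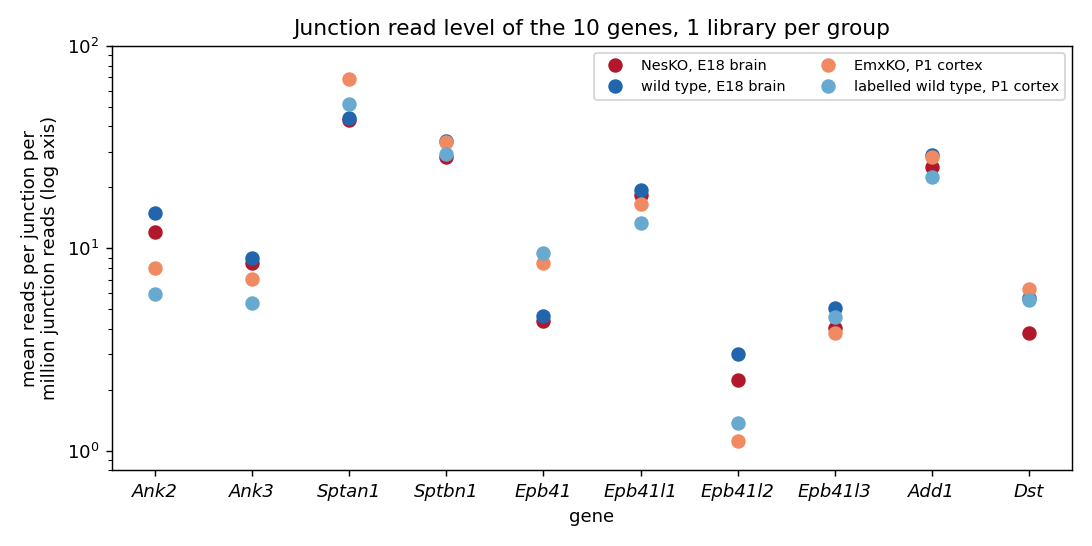
Level of each gene (vertical log axis, mean reads per distinct inclusion junction, scaled to 1000000 junction reads) in 4 libraries, 1 point per library. Sptan1 has the highest level, at 43.0 to 68.4, and the stages lie further apart than the libraries of a stage for Ank2, Epb41 and Epb41l2.

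Other genes of the membrane skeleton were read from a list of 26, with *Ank1*, erythroid and other brain spectrins, further 4.1 genes, beta- and gamma-adducin, tropomodulins, plakins and the L1 family of adhesion molecules that bind ankyrin. Of these genes, 25 had a named middle exon and 21 had an exon tested at E18. At E18, 0 of their 532 tested exons passed both criteria by Fisher's exact test, with 6 past 10 points alone and 1 past 10 points with an unadjusted p below 0.05. At P1, 1 of 530 passed both, a 125-nt exon of *Ank1* with a PSI of 99.5% in the EmxKO against 88.9% in the P1 library labelled wild type (2 and 23 skipping reads), with an adjusted p of 0.000104 by Fisher's exact test. Between the libraries labelled wild type, 6 of 526 passed both. The shares over all exons are those given above.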

How the data were processed

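RNA of 4 mouse samples was compared, with 1 library per group. The authors ran SpliceTrap on paired reads of 100 nt, against its exon database, and each library has its deposited table. The deposited inclusion ratio is a fraction, estimated by SpliceTrap after its correction, and is given here in percent as PSI. The deposited junction reads are counts placed by the authors' mapping, without normalization. The build in the submitters' processing notes is mm9. Coverage columns and splicing class calls were not used.

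Trios were named by lengths against GENCODE mouse release 21 (GRCm38), on which 209930 of 228333 trios matched and 0 of the 521 trios matched more than 1 gene. Sequences and coding status come from the matched GENCODE transcripts, and no coordinates were converted. Of trios with the same middle exon, the named one with the most junction reads was used, and at least 20 reads were required in both libraries. Differences of 10 points were called. Two-sided Fisher's exact tests used the rounded mean of the inclusion junctions against skipping reads, with Benjamini-Hochberg adjustment over all exons tested. The difference between stages was tested by a Wald chi-square test, after adding 0.5 to every count. Wilson intervals are at the 95% level, and with PCR copies among the reads they cover counting error only. At the median of 847.5 to 1618 junction reads, 3 reads of the total are 0.185 to 0.354%.

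The genes, lists and tests were chosen with earlier results of these data known. Exons named are those past 10 points with an adjusted p below 0.05 at a stage, for other genes the exon with the largest difference among those with a skipping share of 5% or more (read both from the deposited ratio and from junction reads), and a *Dst* exon. Other exons given with values were chosen after their values were seen. Calculations used Python 3.11.15, numpy 2.4.6, pandas 2.3.3, scipy 1.17.1 and matplotlib 3.10.9, and were tested on simulated data.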

Additional observations from a re-analysis of the deposited data

Results flagged for a closer look

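For 3 *Ank2* exons the change at E18 differed from the change at P1 by the Wald chi-square test, with stage, tissue, Cre line and protocol changing together. The adjusted p was 3e-16 for the 5′ exon of 99 nt (32.9 and 4.2 points), 7.5e-05 for the exon of 183 nt (-14.9 and -1.3 points) and 0.0043 for the 3′ exon of 99 nt (-19.3 and -1.9 points).

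The *Sptan1* exon of 63 nt is listed at a PSI of 0% in all libraries, but in reads listed outside its own trio it made up 61.4% of the entries into the next exon in the NesKO, 24.8% in the E18 wild type, 41.7% in the EmxKO and 24% in the P1 library labelled wild type. These reads are listed in trios of the next exon and are not used by the exon's own inclusion ratio. The shares compare libraries and are no inclusion level, as entries from the shorter 18-nt exon may be undercounted. The share was higher in each knockout than in the other library of its stage, the P1 one of which skipped *Ptbp2* exon 4 in 31.55% of reads, and the difference was not tested.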

How the results depend on the processing

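Against 17 exons at E18, 5 at P1 and 21 between the libraries labelled wild type, PSI from junction reads gave 10, 6 and 12. Adding the adjusted p gave 3, 3 and 11, a cutoff of 20 points 6, 0 and 11, a cutoff of 5 points 23, 9 and 28, every trio counted 26, 7 and 33, and cassette exons alone 5, 3 and 11. Without exons that have no skipping read the counts were 12, 5 and 14. With the highest listing of each junction, chosen after seeing the data, they were 11, 5 and 11. Other read minimums, the ratio before correction, the trio with the most skipping reads and naming by 1 intron gave 14 to 17, 4 to 5 and 20 to 24.

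Reads from the 5′ neighbor alone were also taken in the highest listing, a choice made after seeing the data. With them the 5′ *Ank2* exon of 99 nt lost its call at E18 (6.62 points). The *Epb41l3* exon of 528 nt lost its call at P1 (8.74 points). In the trio used, the 5′ junction alone kept both calls, at 22.1 and 16.4 points. The adjusted p values by Fisher's exact test were 0.001 and 4e-05. The *Ank3* exon of 27 nt passed at E18 with the left junction alone (15.7 points, adjusted p = 0.011 by Fisher's exact test), and the *Epb41l3* exon of 528 nt passed there with the left junction (19.5 points), the highest listing (14.5 points) and the 5′ neighbor (15.6 points). The cause was not tested. With 1 library per group no library could be left out. No paired analysis was possible because each group has 1 library. A planned search for motifs upstream of the exons was not run.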

Other observations

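Alternative splice sites inside the 10 genes are listed in 9 trios, none of which differed by 10 points between the libraries of a stage. The share of all such trios past 10 points was not computed, so this is not a trait shown for these genes. The largest differences were at a 54-nt stretch of *Epb41l3* (chr17:69611466-69611519), with a PSI of 64.3% in the NesKO, 58.2% in the E18 wild type, 75.1% in the EmxKO and 71.4% in the P1 library labelled wild type. A 93-nt stretch of *Add1* with an alternative 5′ splice site had 48.4, 45.6, 49.5 and 46.3% on 4239 to 7109 reads, with a higher value in each knockout. A 15-nt stretch of *Sptan1* had 11.4, 10, 2.6 and 2.8%, with values that went with stage.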
